A study of Mus musculus with 8 samples.

Results

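The 34 genes described here encode the enzymes of glycolysis and of its side branch, the pentose phosphate pathway, and proteins of the cellular response to low oxygen. They were taken by gene name from the annotation of the array: 15 glycolysis enzymes, 2 regulators of phosphofructokinase, 5 enzymes of pyruvate and lactate metabolism, 4 enzymes of the pentose phosphate pathway and 8 genes of the hypoxia response. All 34 had a probe, 60 probes of 41174 on the array, and 33 of the 34 were tested, of 15455 genes tested in all. The exception was Ldhb, the heart-type lactate dehydrogenase subunit, whose single probe was not well above background on both arrays of any treatment.

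RNA came from RAW264.7 cells, a macrophage-like line established from a mouse tumour. There were 4 treatments with 1 array at 12 h and 1 at 24 h each: untreated control, all-trans retinoic acid (ATRA, which activates the nuclear receptors RAR), interleukin-13 (IL-13, a cytokine that drives alternative activation of macrophages), and IL-13 with ATRA. The labels class control and ATRA cells as unpolarized, IL-13 cells as M2 and cells given both agents as M2 polarization suppressed. They give no doses and no oxygen level, describe the same humidified incubator for every group, and name no hypoxic treatment.

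All values are log2 signals of one-colour arrays, scaled to the 75th percentile of each array, and every difference is on the log2 scale. No treatment was repeated at one time, so the spread behind each test is the disagreement of a treatment difference between 12 h and 24 h. The ± after a difference is its standard error in limma. A gene was called where its p, adjusted by the method of Benjamini and Hochberg across the genes tested, was under 0.05. Nothing in the labels shows that the 8 samples were separate cultures, so a p-value here speaks of the spread among the arrays, which may be technical. The 75th percentile of the signals lay between 431 and 713 per array, and 54.1% to 61.4% of probes were well above background. Both single-agent labels were borne out by reference genes: the mannose receptor Mrc1 was 5.21 higher with IL-13 (adjusted p = 0.0163), and the retinoid-responsive Dhrs3 and Rarb were 2.73 and 1.81 higher with ATRA (adjusted p = 0.0105 and 0.0237). Dhrs3 was also called higher with IL-13 alone, by 1.53 (adjusted p = 0.0383), and Rarb was not (−0.14, adjusted p = 0.646). Tgm2, a transglutaminase induced by retinoids, was 4.50 higher with ATRA (adjusted p = 0.0177). The IL-13 targets Arg1 and Cish had log2 levels of 7.49 and 10.23 with IL-13 at 12 h, against 1.56 and 1.39 in control cells. With ATRA alone Arg1 was higher by 2.56 at 12 h and 3.73 at 24 h, which did not pass (3.14, adjusted p = 0.056). Cish with ATRA alone gave 1.18 (adjusted p = 0.104). For the label of suppressed polarization the IL-13 genes were mixed when both agents were set against IL-13. Arg1 was called higher by 5.46 (adjusted p = 0.0161), and Cish differed by −0.04 (adjusted p = 0.952). Mrc1 was lower by a difference of −1.65 that did not pass (adjusted p = 0.0987). In all, 9 of 10 macrophage markers, Adgre1, Cd68 and Lyz2 among them, were well above background on all 8 arrays, and the epithelial markers Epcam, Krt8 and Cdh1 were so on 0 arrays. Of 16 markers of T, B, epithelial and endothelial cells and fibroblasts 6 passed the filter, while Cd3g, Cd8a, Col1a1, Pdgfra, Pecam1 and Cdh5 were well above background on 0 arrays.

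Glycolysis splits glucose into pyruvate, which is reduced to lactate or enters the mitochondria, while the pentose phosphate pathway takes glucose 6-phosphate to make NADPH and ribose. HIF-1, a dimer whose alpha subunit is encoded by Hif1a, raises the transcription of many glycolytic genes when oxygen is low. At normal oxygen, prolyl hydroxylases such as those encoded by Egln1 and Egln3 mark the alpha subunit for degradation. In macrophages, inflammatory activation is known for high glycolysis, and alternative activation by IL-4 or IL-13 for a greater use of oxidative metabolism.

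The sequence ACGTG is a form of the core at which HIF-1 binds DNA, and other forms were not searched. That form, called the core below, was searched on both strands (ACGTG or its reverse complement CACGT, which overlap in CACGTG). The search covered the 250 bases before the transcription start in RefSeq's promoter windows of the mouse build GRCm38.p6. Of the 34 members 32 had a window, Ndrg1 and Bnip3l being without an entry. The core was present in at least 1 window of 15 of these 32 genes (46.9%), against 18.5% of 27025 genes with a window. The members' windows were richer in G and C (median 60.4% against 52.4% for all 32851 windows). By role, it was present for 6 of 6 hypoxia-response genes, 6 of 15 glycolysis enzymes, 2 of 5 pyruvate and lactate genes, 1 of 2 phosphofructokinase regulators and 0 of 4 pentose phosphate genes. A window of each of 3 genes with the core, and that of G6pdx, are shown 5′ to 3′ in the direction of transcription, with the core in capitals. G6pdx lacked the core as searched, and a link between the core and any difference in signal was not tested.

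Ldha (chr7:46845554-46845803, plus strand): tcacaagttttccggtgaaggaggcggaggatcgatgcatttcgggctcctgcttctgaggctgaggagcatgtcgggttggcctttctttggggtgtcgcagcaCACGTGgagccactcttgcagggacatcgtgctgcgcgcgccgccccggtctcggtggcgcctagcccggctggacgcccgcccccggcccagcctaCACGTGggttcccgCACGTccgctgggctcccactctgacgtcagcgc
Pgk1 (chrX:106186850-106187099, plus strand): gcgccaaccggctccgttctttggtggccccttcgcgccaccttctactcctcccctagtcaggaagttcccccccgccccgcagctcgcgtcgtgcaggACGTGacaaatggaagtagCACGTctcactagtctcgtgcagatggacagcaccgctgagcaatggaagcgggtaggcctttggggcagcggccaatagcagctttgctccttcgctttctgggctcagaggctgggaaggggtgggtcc
Bnip3 (chr7:138909507-138909756, minus strand): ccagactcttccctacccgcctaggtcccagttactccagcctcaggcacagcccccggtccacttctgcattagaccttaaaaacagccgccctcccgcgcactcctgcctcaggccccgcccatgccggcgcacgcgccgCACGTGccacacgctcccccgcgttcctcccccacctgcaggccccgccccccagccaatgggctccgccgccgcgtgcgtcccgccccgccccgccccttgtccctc
G6pdx (chrX:74428881-74429130, minus strand): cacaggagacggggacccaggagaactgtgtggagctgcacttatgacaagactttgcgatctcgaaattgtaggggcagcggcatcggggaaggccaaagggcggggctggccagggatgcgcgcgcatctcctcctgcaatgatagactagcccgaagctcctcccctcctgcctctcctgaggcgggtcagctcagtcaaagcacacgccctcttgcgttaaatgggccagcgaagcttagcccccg

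Ldha encodes the muscle-type lactate dehydrogenase subunit. The Ldha window shown held the core on both strands in the palindrome CACGTG, which begins 145 and again 48 bases before the start. The core began once more 34 bases before the start. Another Ldha window (chr7:46846832-46847081, plus strand) did not hold the core. In the Pgk1 window, that of phosphoglycerate kinase, it began 150 and 131 bases before the start, on opposite strands. The Bnip3 window, that of a mitophagy receptor, held 1 palindrome that began 108 bases before the start. Neither of the 2 windows of Hk1 (chr10:62340422-62340671 and chr10:62379909-62380158, minus strand) held it. A match is a stretch of letters, and binding was not measured. A window without ACGTG may still hold another form of the HIF-1 site.

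Most of the 33 tested members did not pass the test in any comparison, and those that did were all lower with treatment. With IL-13 alone 0 were called by limma, where 0.692% of all genes were called higher and 0.537% lower. At an unadjusted limma p under 0.05 there were 7 of the 33 members, beside 3752 of all 15455 genes. With ATRA alone only Ndrg1 was called, as lower (background 0.893% higher and 0.88% lower). With both agents Ndrg1, Hk1 and G6pdx were lower than in control cells, 3 of 33 members, and 0 were higher (background 3.22% higher and 5.2% lower). Against IL-13 alone, IL-13 with ATRA lowered Ndrg1 only (background 1.11% higher and 1.48% lower). Against ATRA alone, limma called 0 members (background 0.265% higher and 0.0906% lower). Here 4 of the 33 members had an unadjusted p under 0.05, beside 2022 of all 15455 genes. The comparisons with control share the control arrays, so they are not independent of each other.

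The median difference of the 33 members was −0.04 with IL-13, −0.05 with ATRA and −0.06 with both agents, beside medians of 0.02, −0.01 and −0.01 over all genes. Of the members, 19 were lower and 14 higher in sign in each of these 3 comparisons. Ndrg1 was the only member to differ 2-fold or more in one direction at 12 h and at 24 h, in 3 comparisons: ATRA against control (2.61% of all genes did so), both agents against control (4.45%) and both agents against IL-13 (2.77%). No member did so with IL-13 against control (2.88% of all genes) or with both agents against ATRA (1.54%).

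**Figure D1:**
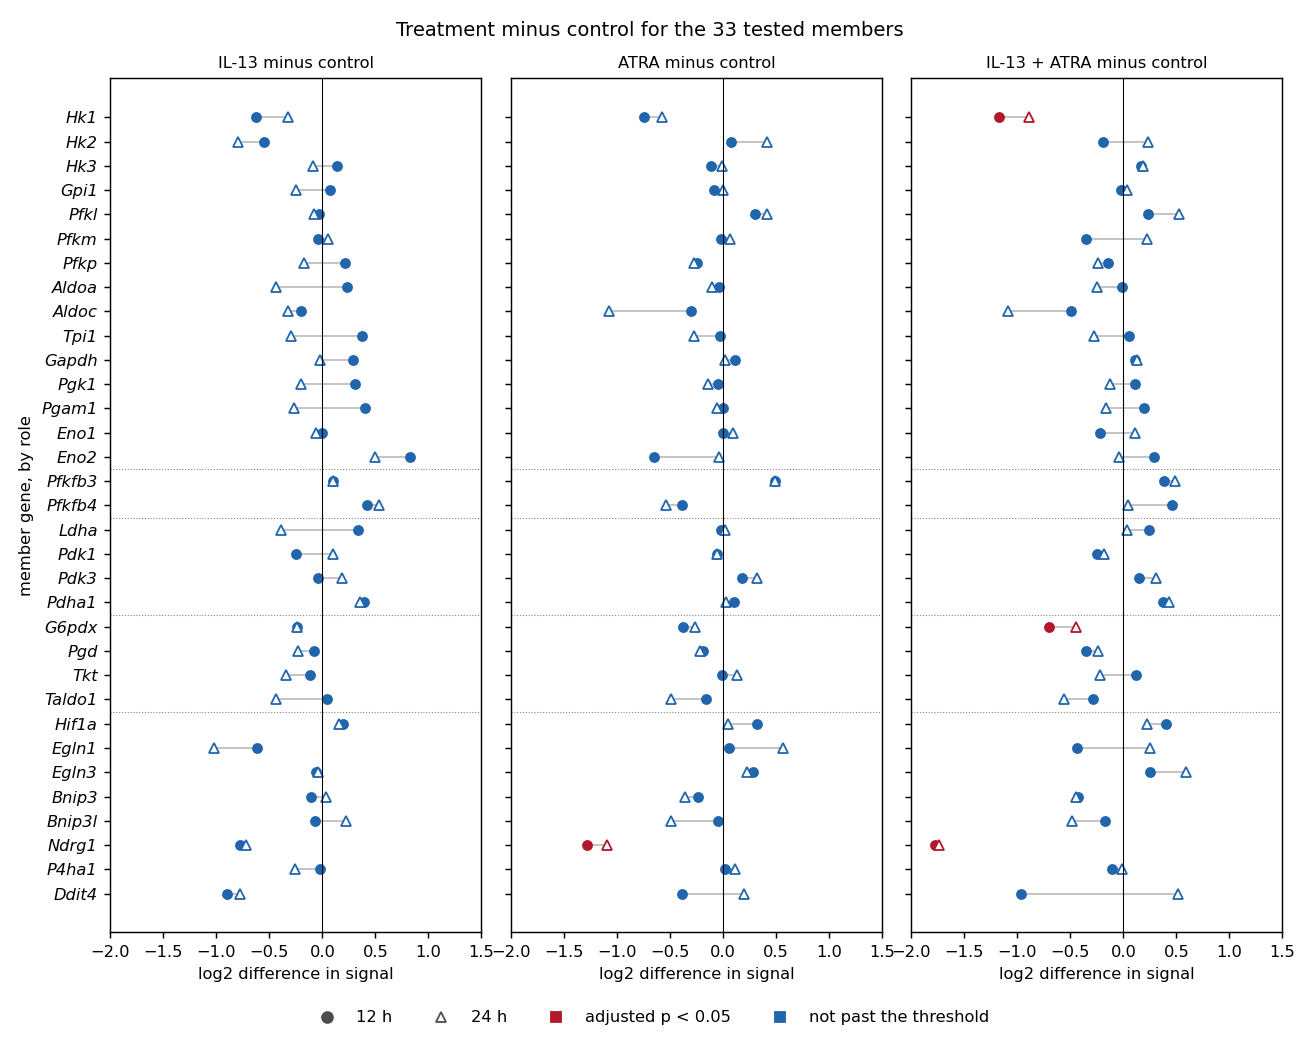
Log2 difference in signal between each treatment and control for the 33 tested members, 1 row per gene in order of role, with circles for 12 h and triangles for 24 h. Genes past an adjusted p of 0.05 are red: Ndrg1 with ATRA, and Hk1, G6pdx and Ndrg1 with both agents; the other members are blue and lie mostly within 1 log2 unit of 0.

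Among the hypoxia-response genes, Ndrg1 stood lowest with both agents. Ndrg1 encodes N-myc downstream regulated 1, a stress protein that hypoxia is known to induce. Its probe lies at chr15:66761057-66761116 (mm9, minus strand). Its log2 level was 11.07 at 12 h and 11.31 at 24 h in control cells, 10.29 and 10.58 with IL-13, 9.79 and 10.21 with ATRA, and 9.29 and 9.57 with IL-13 and ATRA. At each time the order was control, IL-13, ATRA, both agents, and the 2 arrays of any treatment did not overlap with those of another.

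With both agents Ndrg1 was 3.38-fold lower than in control cells (−1.76 ± 0.11, adjusted p = 0.0038), with −1.78 at 12 h and −1.74 at 24 h. This call held without each of the 8 arrays in turn (adjusted p of at most 0.0429), and it was lost when no filter was set on dim probes (adjusted p = 0.0545), with the same log2 difference. With ATRA alone Ndrg1 was 2.28-fold lower (−1.19 ± 0.11, adjusted p = 0.0202). ATRA added to IL-13 lowered it by a similar size (−1.01 ± 0.11, adjusted p = 0.0231). The ATRA call was lost without either control array, either ATRA array or either array with both agents (adjusted p up to 0.147, difference −1.11 to −1.26). The call against IL-13 held in 1 of the 8 refits without 1 array, the one without the 12 h IL-13 array (adjusted p = 0.0471).

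IL-13 alone gave a Ndrg1 difference of −0.75 ± 0.11, which did not pass (adjusted p = 0.0533). This difference did pass in 5 of 10 alternative analyses that kept both arrays of each treatment compared, quantile normalization among them (adjusted p = 0.0485). IL-13 added to ATRA gave −0.57 ± 0.11 (adjusted p = 0.147). The departure from additivity, (both minus IL-13) minus (ATRA minus control), was 0.18 ± 0.15 (95% interval −0.21 to 0.57, adjusted p = 1).

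Markers of osteoclasts, which RAW264.7 cells can form, moved with the same treatments. Of 5 that were tested, Mmp9 was called higher and Dcstamp and Ocstamp lower with ATRA, and Mmp9 and Acp5 higher with both agents. Their summed signal on the linear scale was 1721 to 2202 in control cells, 519 to 561 with ATRA, 3753 to 4806 with IL-13 and 1095 to 1782 with both agents, and the defining marker Calcr was well above background on 0 arrays. Among the 9 macrophage markers tested, Adgre1 was called higher and Ptprc lower with both agents. Adgre1 was also called higher with IL-13 alone (1.08, adjusted p = 0.0371, against 0.85 with both agents). The part of these markers in the differences of the members was not tested.

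**Figure D2:**
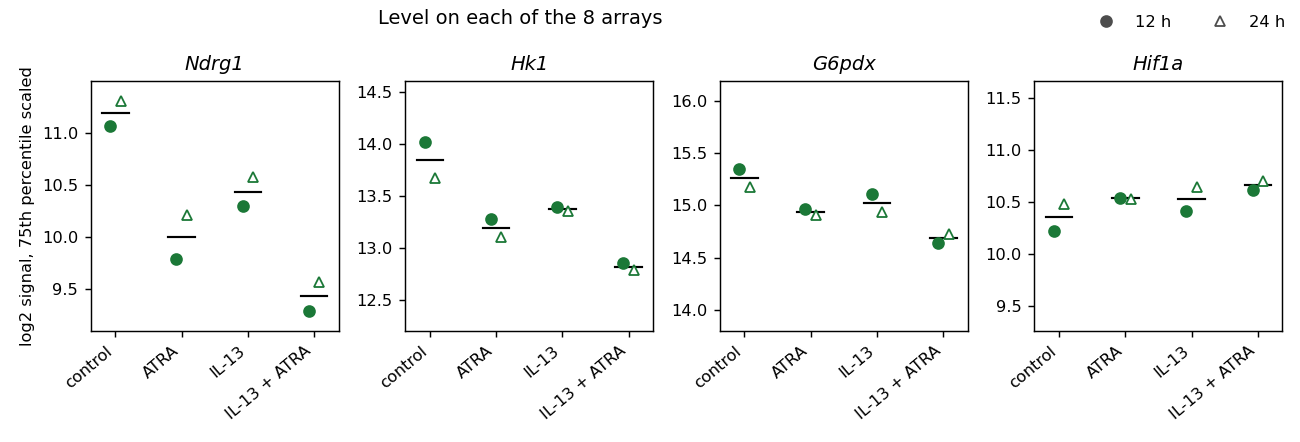
Log2 signal of Ndrg1, Hk1, G6pdx and Hif1a on each of the 8 arrays by treatment, with circles for 12 h, triangles for 24 h and a bar for the mean of the 2 arrays; each panel spans the same range of log2 units. Ndrg1 falls from 11.07 and 11.31 in control cells to 9.29 and 9.57 with both agents, Hk1 and G6pdx are lowest with both agents, and Hif1a stays between 10.22 and 10.703.

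Hif1a itself, the oxygen-regulated subunit, varied little. Its log2 level was 10.22 at 12 h and 10.48 at 24 h in control cells, 10.42 and 10.64 with IL-13, 10.54 and 10.53 with ATRA, and 10.62 and 10.703 with both agents. The array with both agents was the highest at each time, and the values of the 2 IL-13 arrays overlapped with those of every other treatment. The difference from control was 0.31 ± 0.12 with both agents (95% interval 0.01 to 0.61, adjusted p = 0.168), 0.18 with ATRA (adjusted p = 0.573) and 0.18 with IL-13 (adjusted p = 0.383). HIF-1 alpha is controlled largely as a protein, which the arrays do not measure.

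The remaining hypoxia-response members did not pass. Bnip3 had a difference of −0.44 ± 0.12 with both agents (adjusted p = 0.0798), and its relative Bnip3l, also a mitophagy receptor, one of −0.33 (adjusted p = 0.338). Egln1, the main oxygen-sensing hydroxylase, gave −0.62 at 12 h and −1.02 at 24 h with IL-13 (−0.82 ± 0.28, adjusted p = 0.172) and −0.09 with both agents. Egln3, a hydroxylase that HIF-1 itself induces, gave 0.42 ± 0.14 with both agents (adjusted p = 0.126). P4ha1, a collagen prolyl hydroxylase, lay between −0.14 and 0.07 in the comparisons of each treatment with control. Ddit4, an inhibitor of mTORC1, gave −0.84 ± 0.37 with IL-13 (adjusted p = 0.231), and with both agents it gave −0.96 at 12 h and 0.52 at 24 h.

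Of the 15 glycolysis enzymes, Hk1 was the one called. Hk1 encodes hexokinase 1, which phosphorylates glucose in the first step of the pathway, and the probe used lies at chr10:61731916-61731975 (mm9, minus strand). Its log2 level was 14.02 at 12 h and 13.67 at 24 h in control cells, 13.40 and 13.35 with IL-13, 13.28 and 13.10 with ATRA, and 12.85 and 12.79 with both agents. Control arrays were the highest and arrays with both agents the lowest at each time, with no overlap between treatments.

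Hk1 was 2.04-fold lower with both agents than in control cells (−1.03 ± 0.12, adjusted p = 0.0137), with −1.17 after 12 h and −0.89 after 24 h. The call was lost without either control array or either array with both agents (adjusted p 0.0636 to 0.0948, difference −0.90 to −1.16) and with no filter on dim probes (0.0993). The other 4 Hk1 probes that passed the filter gave −0.56, −0.79, −0.91 and −1.096, all lower as well. Each agent alone gave a smaller difference that did not pass, −0.66 ± 0.12 with ATRA (adjusted p = 0.0761) and −0.47 ± 0.12 with IL-13 (adjusted p = 0.127). Departure from additivity was 0.10 ± 0.18 (adjusted p = 1).

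The other hexokinases, Hk2 and Hk3, were not called. Hk2, the inducible hexokinase, gave −0.67 ± 0.19 with IL-13 (adjusted p = 0.136), 0.25 with ATRA and 0.02 with both agents (95% interval −0.46 to 0.50), and 0.70 ± 0.19 between both agents and IL-13 (adjusted p = 0.143). Hk3, a hexokinase of myeloid cells, lay between −0.06 and 0.18 in the comparisons with control. Aldoc, the brain-type aldolase, gave −0.79 ± 0.22 with both agents (adjusted p = 0.0897), with −0.49 at 12 h and −1.09 at 24 h, and a second, dimmer probe gave −1.43. Eno2, the neuronal enolase, gave 0.66 ± 0.25 with IL-13 (adjusted p = 0.196). Among the phosphofructokinase subunits, Pfkl gave 0.38 ± 0.13 with both agents (adjusted p = 0.131), Pfkp −0.19 and Pfkm −0.07. Eno1, the main enolase, spanned 0.27 log2 units over the 8 arrays, the smallest range of any member, where Ndrg1 had the widest at 2.01.

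A further 9 members had a mean log2 signal above 15: Aldoa, Gapdh, Gpi1, Ldha, Pgam1, Pgk1, Tpi1, Tkt and Taldo1. Limma called 0 of these 9 in any comparison. For Gapdh the difference between both agents and control was 0.12 ± 0.13 (95% interval −0.20 to 0.44), and for Ldha it was 0.14 ± 0.21 (95% interval −0.39 to 0.66). The IL-13 difference of the 9 had a median of 0.29 at 12 h and of −0.30 at 24 h, so its sign turned between the times. All 507 genes above the same signal had medians of 0.29 and −0.18. The 75th percentile of the IL-13 array was the lowest of all at 12 h (431) and the highest at 24 h (713). These medians were computed after the data were seen, and under quantile normalization they were 0.04 at 12 h and −0.0042 at 24 h, with single members from −0.37 (Tkt at 12 h) to 0.36 (Gapdh at 24 h). The part of signal strength and scaling in the differences of these enzymes at single times was not tested.

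**Figure D3:**
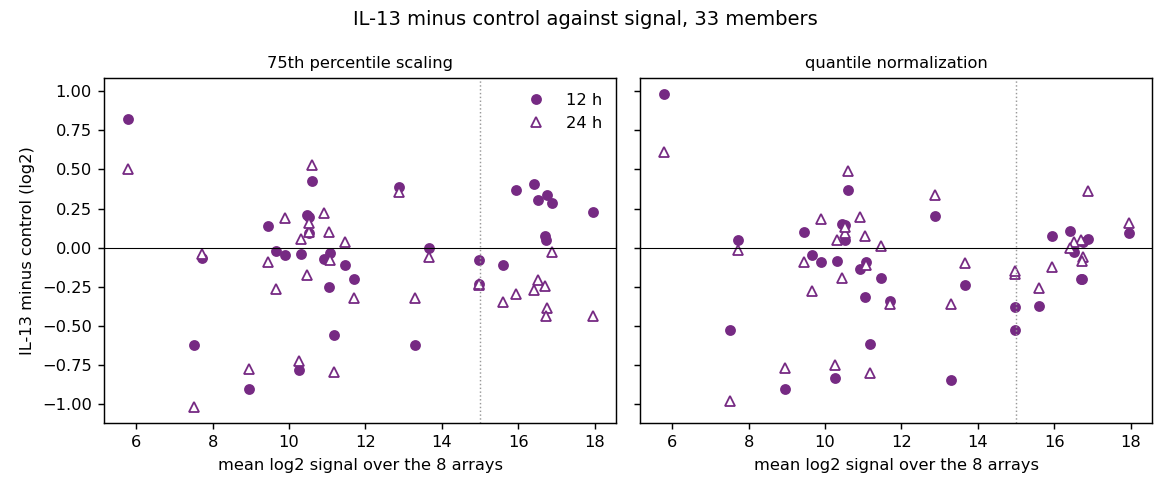
Log2 difference between IL-13 and control (vertical axis) against the mean log2 signal over the 8 arrays (horizontal axis) for the 33 members, with circles for 12 h and triangles for 24 h, under 75th percentile scaling (left) and quantile normalization (right); the dotted line marks a log2 signal of 15. Right of the line the 9 members have medians of 0.29 and −0.30 under percentile scaling, with some overlap of the times, and medians of 0.04 and −0.0042 under quantile normalization, with single members from −0.37 to 0.36.

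Signals of several of these enzymes can include near-identical copies, since the mouse genome holds processed copies of many glycolytic genes. Both Pgk1 probes are placed on chromosome 3 by the array's annotation (mm9), while RefSeq has the gene on X, so the values given as Pgk1 are uncertain in this respect. All other members' probes lie on the chromosome of their gene.

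The regulators of phosphofructokinase make or remove fructose 2,6-bisphosphate, which activates that enzyme. Pfkfb3, the isoform with the strongest bias to synthesis, gave 0.49 ± 0.10 with ATRA (adjusted p = 0.101; 0.49 at both times) and 0.43 ± 0.10 with both agents (adjusted p = 0.0656), and 0.10 with IL-13. Its other 2 probes that passed the filter, both dimmer, gave 0.18 and 0.11 with both agents and 0.44 and 0.28 with ATRA. It passed with both agents under normexp background correction and under trend and robust settings. Pfkfb4 gave 0.48 ± 0.16 with IL-13 (adjusted p = 0.162), −0.46 ± 0.16 with ATRA (adjusted p = 0.253) and 0.25 with both agents.

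Limma called 0 of the 4 tested genes of pyruvate and lactate metabolism in any comparison. Pdha1, a subunit of pyruvate dehydrogenase, which feeds pyruvate into the citric acid cycle, gave 0.40 ± 0.10 with both agents (adjusted p = 0.0771) and 0.37 ± 0.10 with IL-13 (adjusted p = 0.135), and its second probe gave 0.19 and 0.20. Pdk1 and Pdk3, kinases that inactivate pyruvate dehydrogenase, gave −0.22 ± 0.13 (adjusted p = 0.336) and 0.23 ± 0.11 (adjusted p = 0.253) with both agents.

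In the pentose phosphate pathway, G6pdx was lower with both agents. It encodes glucose 6-phosphate dehydrogenase, the first and rate-limiting enzyme of the NADPH-producing branch, and its probe lies at chrX:71654949-71655008 (mm9, minus strand). Its log2 level was 15.35 at 12 h and 15.18 at 24 h in control cells, 15.12 and 14.94 with IL-13, 14.97 and 14.91 with ATRA, and 14.64 and 14.73 with both agents. The control arrays were above and the arrays with both agents below all others.

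G6pdx was 1.49-fold lower with both agents than in control cells (−0.58 ± 0.12, adjusted p = 0.0479). This call was lost without any 1 of the 8 arrays (adjusted p 0.0556 to 0.25, difference −0.47 to −0.69). It was also lost under normexp correction (0.0584), with the authors' values (0.0509), with no filter on dim probes (0.223) and when just the control arrays and those with both agents were fitted (0.136). With ATRA alone the difference was −0.32 ± 0.12 (adjusted p = 0.298) and with IL-13 alone −0.24 ± 0.12 (adjusted p = 0.273). The other 3 members did not pass with both agents: Taldo1, transaldolase, gave −0.42 ± 0.15 (adjusted p = 0.138), Pgd, the second NADPH-producing enzyme, −0.30 ± 0.12 (adjusted p = 0.166), and Tkt, transketolase, −0.05. A second Pgd probe gave 0.02. Other, much dimmer Tkt probes that passed the filter gave 0.22 and −0.71 with both agents.

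Of the other genes of these pathways that were listed and tested, 1 of 27 in glycolysis and sugar or lactate transport was called with both agents against control, as higher, where 3.22% of all genes were called higher. That share of the list is near the background. The gene was Slc2a6, a glucose transporter, at 1.16 ± 0.13 (adjusted p = 0.011). It was also higher with ATRA alone (1.14 ± 0.13, adjusted p = 0.0283) and when ATRA was added to IL-13 (1.17 ± 0.13, adjusted p = 0.023). Its log2 level was 12.25 and 12.15 in control cells, 12.38 and 12.01 with IL-13, 13.36 and 13.32 with ATRA, and 13.43 and 13.30 with both agents, so the 4 arrays with ATRA lay above the 4 without it. Of 7 other pentose phosphate genes 1 was called, Rbks, the ribose kinase, at 0.84 ± 0.11 with both agents (adjusted p = 0.016), a single call that says little of so short a list.

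Of 36 other hypoxia and HIF pathway genes tested, 4 rose and 2 fell with both agents against control, with a list median of 0.16, beside 3.22% of all genes called higher and 5.2% lower. The count of genes that fell is near that background. Those that rose were Bhlhe40, a transcriptional repressor (2.62 ± 0.22, adjusted p = 0.00701), Hilpda, a lipid droplet protein (1.58 ± 0.20, adjusted p = 0.0157), the angiogenic factor Vegfa (1.14 ± 0.11, adjusted p = 0.00904) and the secreted glycoprotein Stc2 (1.096 ± 0.15, adjusted p = 0.0185). Those that fell were Ankrd37 (−0.62 ± 0.12, adjusted p = 0.0443) and Narf (−0.68 ± 0.13, adjusted p = 0.0376). The Narf call held in 3 of 10 alternatives that kept both arrays of each treatment compared. Normexp (−0.33, adjusted p = 0.149), quantile normalization (adjusted p = 0.0558) and the mean over its probes (−0.56, adjusted p = 0.104) were among those that lost it. That of Ankrd37 held in 7 of 10. Both Ndrg1, lower with both agents, and Vegfa, higher, are textbook targets of HIF-1.

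Vegfa had log2 levels of 8.23 and 8.26 in control cells, 8.25 and 8.28 with IL-13, 9.17 and 9.28 with ATRA, and 9.42 and 9.35 with both agents. The 4 arrays with ATRA were above the 4 without it, whereas for Ndrg1 the 4 arrays with ATRA were below. ATRA alone raised Vegfa by 0.98 ± 0.11 (adjusted p = 0.0283) and Bhlhe40 by 1.52 ± 0.22 (adjusted p = 0.0465). IL-13 alone raised Bhlhe40 by 1.85 ± 0.22 (adjusted p = 0.0369), the 1 gene of this list called with IL-13.

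When ATRA was added to IL-13, Vegfa (1.12 ± 0.11, adjusted p = 0.0175), Stc2 (0.94 ± 0.15, adjusted p = 0.0464) and the collagen hydroxylase P4ha2 (0.90 ± 0.12, adjusted p = 0.0332) were called higher and Narf lower (−0.97 ± 0.13, adjusted p = 0.0323), where 1.11% of all genes were called higher and 1.48% lower. Both P4ha2 and Narf kept this call in 6 of 10 alternatives that kept both arrays of each treatment compared. Normexp brought P4ha2 to 0.40 (adjusted p = 0.249) and Narf to −0.54 (adjusted p = 0.0711). Epas1, which encodes HIF-2 alpha, was more than 2-fold higher at both times in that comparison but did not pass (1.52, adjusted p = 0.0574). Against ATRA alone limma called 0 of the 36. Each of these calls on genes outside the 34 was lost without at least 3 of the 8 arrays, controls and arrays with both agents among them, and with no filter on dim probes.

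**Figure D4:**
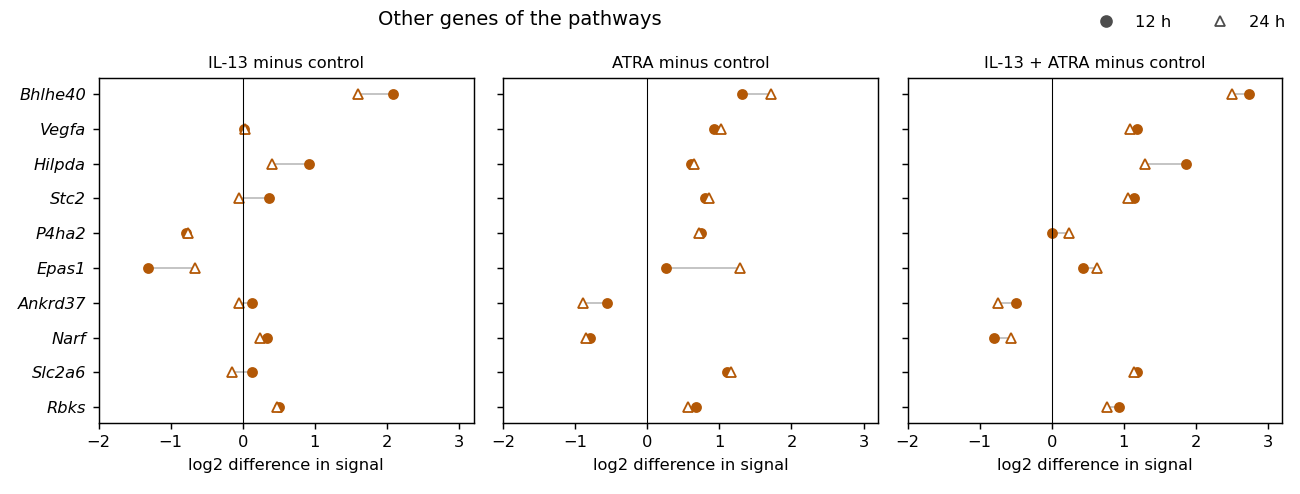
Log2 difference from control at 12 h (circles) and 24 h (triangles) for the 10 other genes of the pathways named in the text, with 1 panel per treatment. Vegfa and Slc2a6 lie near 0 with IL-13 and near 1 with ATRA and with both agents, and Bhlhe40 is higher in all 3 panels.

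Between 24 h and 12 h limma called 0 members, beside 0% of all genes. An unadjusted p under 0.05 was reached by 5 members, beside 1875 of all 15455 genes. Time and slide cannot be told apart, since the 12 h arrays shared 1 slide and the 24 h arrays another. The members with an unadjusted p under 0.05 were Hk3 (−0.57 ± 0.09, adjusted p = 0.313), Bnip3 (0.41 ± 0.08, adjusted p = 0.315), Ndrg1 (0.30 ± 0.08, adjusted p = 0.341), Pdk1 (0.29, adjusted p = 0.373) and Pdha1 (0.21, adjusted p = 0.38). In the test of departure from additivity limma called 0 members, beside 0.0194% of all genes. An unadjusted p under 0.05 was reached by 0 members, beside 566 of all 15455 genes. The 95% intervals of the members' treatment differences reached up to 0.92 log2 units to either side, for Ddit4, so a member that did not pass is not shown to be unaltered.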

How the data were processed

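Total RNA of 8 samples was labelled with Cy3 and hybridized to one-colour mouse expression arrays of Agilent, whose design number is 014868 per the file headers. The authors read them with Feature Extraction 10.7.1.1, and the deposited processed signals are intensities with background removed, not normalized between arrays. The deposited other 0 or 1 flags for each spot gave well above background, non-uniform and outlying spots. The authors' deposited table on a log2 scale, used as an alternative, had column medians of 4.5745 to 4.5757, a Spearman correlation of at least 0.999996 with its own array's signals, and the form of quantile-normalized values; its method was not given in the sources used here. Coordinates of probes are mm9, per the file headers.

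Outlying spots were set missing, repeats averaged, log2 taken and each array scaled to its 75th percentile. A probe was kept where some treatment had it well above background at 12 h and at 24 h (24042 of 41174), and the probe with the highest mean signal stood for a gene, 18 members having several. limma 3.58.1 in R 4.3.3 fitted treatment and time on all 8 arrays (3 residual degrees of freedom, prior 2.41). The test was checked on simulated data. Members called in a comparison, or 2-fold the same way at both times, and Hif1a are given on every array; other pathway genes are named where called or 2-fold at both times. The members and lists were chosen with earlier results of these data known. Alternatives concerned background, scaling, filter, probes, flags, model terms and each array left out.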

Additional observations from a re-analysis of the deposited data

Results flagged for a closer look

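Ddit4, the mTORC1 inhibitor gene, moved in opposite directions at the 2 times when cells given both agents were set against control: the log2 difference was −0.96 at 12 h and 0.52 at 24 h. Each value is the difference between 2 arrays, and the difference between the times was not tested. It is singled out because the sign turned with at least 0.5 log2 units on either side, which no other member did in the comparisons between treatments. The level with both agents was 8.25 at 12 h and 9.80 at 24 h, against 9.22 and 9.28 in control cells.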

How the results depend on the processing

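The log2 differences of Ndrg1, Hk1, G6pdx and Hif1a kept their sign in all 5 treatment comparisons, while calls moved. This held under all 10 alternatives that kept both arrays of each treatment compared, and without each array. The limma count of members called with IL-13 against control rose from 0 to 1 (Ndrg1) with normexp, quantile normalization, the authors' values, the filter for all 8 arrays, and trend and robust settings. Over all genes that comparison had 190 calls in the main analysis and 212 with normexp. It had 166 with quantile normalization and 162 with the authors' values. With no filter on dim probes 0 members were called with ATRA, with both agents against control and against IL-13, when 27343 genes were tested (4, 7 and 6 members had an unadjusted p under 0.05). Trend and robust settings gave 3 for ATRA (Hk1, Ndrg1, Pfkfb3), 7 for both agents against control (Aldoc, Bnip3, G6pdx, Hk1 and Ndrg1 lower, Pdha1 and Pfkfb3 higher) and 2 against IL-13 (Hk1, Ndrg1). The shares of all genes with no filter and with trend and robust settings are not given here. The member counts under those settings therefore stand without a background and are not a result about the members. The count against IL-13 was 0 with no time term, that is with no replicate block of arrays by time, and 0 with only the arrays compared. Without 1 array it ranged from 0 to 1 with ATRA, from 1 to 2 with both agents against control and from 0 to 1 against IL-13. Such refits leave 2 residual degrees of freedom, and the lone array of a treatment is assumed to vary like the others. The count was 0 in each alternative for both agents against ATRA, for the departure from additivity and for time. Over the 75th percentile, normexp, quantile normalization and the authors' values, the median difference of all genes in the 5 treatment comparisons lay between −0.02 and 0.05. All 33 tested members were well above background on all 8 arrays, and the number of arrays limits the precision.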
